A study of Mus musculus with 2 samples.

Results

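In single-cell libraries of the newborn mouse heart, 61 of 11935 cell barcodes had more than 50% of their counts in the 4 adult globin genes Hba-a1, Hba-a2, Hbb-bs and Hbb-bt. These barcodes, called erythroid barcodes here, made up 0.511% of all barcodes (exact 95% interval 0.391 to 0.656, counting error only). The study profiled dissociated whole hearts at P0 (postnatal day 0) from mice of C57BL6+ICR background with a droplet 3' kit, to build a reference map of cardiac cells for work on direct lineage conversion. There was 1 biological replicate, loaded as 2 technical replicates, with no treatment or genotype comparison. Whether hearts of several pups were pooled is not given in the sources used here. Technical replicate 1 held 5888 barcodes and 34668956 counts, and technical replicate 2 held 6047 barcodes and 33871582 counts. No replication across animals was available, so no difference below was tested, and all intervals cover counting error alone.

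Maturing red cells devote most of their messenger RNA to the alpha and beta chains of haemoglobin. They build haem in the mitochondrion and cytosol, import iron for it, assemble a spectrin-based membrane skeleton, and then clear their mitochondria and ribosomes. In mammals they also expel the nucleus, and the enucleated reticulocyte keeps a shrinking store of messenger RNA until it becomes an erythrocyte. Around birth the circulation of a mouse holds many such young red cells, and blood left in a dissected heart can bring them into a cell suspension.

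The barcodes were chosen by their measured share of adult globin counts, so the globin values are given as a description. The adult globin share of a barcode's counts ran from 52.2% to 94.0% with a median of 91.0%, and it passed 80% in 55 of the 61. Technical replicate 1 gave 26 members (0.442% of its barcodes) and technical replicate 2 gave 35 (0.579%). The 3 barcodes just inside the threshold had 52.2%, 53.9% and 63.8% globin, and the 3 just outside had 45.7%, 45.9% and 47.0%. All 6 came from technical replicate 1. Few barcodes lay near the threshold, and the members formed a group at the upper left of the plot of globin share against the other counts.

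**Figure D1:**
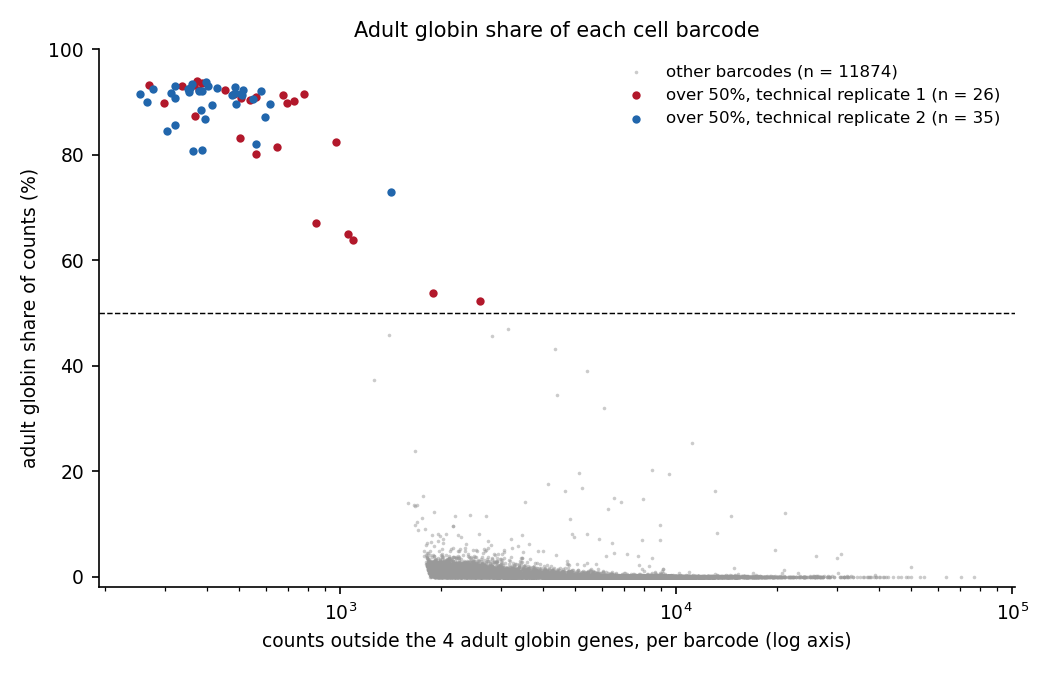
Each point is 1 cell barcode. The horizontal axis (log scale) gives its counts outside the 4 adult globin genes, the vertical axis the percent of its counts in those genes, and the dashed line the 50% threshold. The 61 erythroid barcodes (red and blue by technical replicate) mostly sit above 80% with 254 to 974 other counts, while the remaining barcodes sit mostly below 5%.

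Erythroid barcodes were about as deep as the others in total counts but had few detected genes. They held a median of 4898 counts, against 5951 in the 8710 low-globin barcodes (under 0.5% adult globin) that serve as the comparison. Their median number of detected genes was 266, against 1942. Only 4 of the 61 would have passed the customary minimum of 500 genes and 1000 counts, against 11749 of all 11935 barcodes. The fewest genes in any barcode of the matrices was 200, and red cells with fewer detected genes were not analysed here. Members accounted for 41 of the 101 barcodes with under 300 genes. The 2 libraries shared 53 barcode sequences, none of them among the members, and no doublet caller was run.

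Globin in these barcodes was mostly adult globin, as the rule that chose them requires. Members carried a median of 4411 adult globin counts (lowest 1530, highest 8342), and they held 53.3% of all 483146 adult globin counts in the libraries. The other globin genes gave 19 counts in all, spread over 14 members. Hbb-bh1, an embryonic beta-like gene, had 3 counts in technical replicate 1 and 5 in technical replicate 2, and the embryonic gene Hbb-y had 1 and 1. The theta-like genes Hbq1a and Hbq1b had 0 and 3, and 4 and 2 counts. Hba-x, the embryonic zeta chain, and Hbb-bh2 had none, and a count of 0 over the 61 barcodes allows up to 3 counts.

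The upstream sequences of the beta globin gene Hbb-bs, the alpha globin gene Hba-a1 and the haem enzyme gene Alas2 are shown because these genes mark the barcodes, and were searched for motifs known from erythroid promoters. Capitals mark matches to AGATAA, the core bound by GATA factors, and to CCNCACCC, the CACCC box bound by Klf-family factors, each searched on both strands in the 250 bases before the RefSeq start site. Where capitals lie on the other strand they read TTATCT or GGGTGNGG. In Hba-a1 neither motif was found in this spelling. The sequences are RefSeq's, build GRCm38.p6, written 5′ to 3′ on the gene's strand, from chr7:103827929-103828178 (minus strand), chrX:150547167-150547416 (plus strand) and chr11:32283422-32283671 (plus strand).
Hbb-bs: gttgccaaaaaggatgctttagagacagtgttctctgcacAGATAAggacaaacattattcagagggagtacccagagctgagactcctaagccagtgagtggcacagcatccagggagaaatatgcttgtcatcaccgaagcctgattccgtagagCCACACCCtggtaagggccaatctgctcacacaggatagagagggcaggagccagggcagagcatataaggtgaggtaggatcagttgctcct
Alas2: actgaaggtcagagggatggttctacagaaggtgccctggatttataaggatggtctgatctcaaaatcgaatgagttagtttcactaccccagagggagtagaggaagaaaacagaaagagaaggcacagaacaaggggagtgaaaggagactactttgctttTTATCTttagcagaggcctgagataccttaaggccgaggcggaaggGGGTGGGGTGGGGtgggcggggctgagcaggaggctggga
Hba-a1: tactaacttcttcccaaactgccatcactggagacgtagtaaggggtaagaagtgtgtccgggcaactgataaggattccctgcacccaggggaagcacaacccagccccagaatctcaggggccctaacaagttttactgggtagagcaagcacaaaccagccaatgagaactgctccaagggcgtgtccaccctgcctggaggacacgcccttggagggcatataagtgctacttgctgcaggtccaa
In the Hbb-bs window the GATA match starts at position -210 from the start site and the CACCC match at -93. The Alas2 window held 1 GATA match, at position -86, and 2 overlapping CACCC matches. Hbb-bt held a CACCC match at -107 and no GATA match in this spelling, and Hba-a2 held neither. Of all 27025 promoters in the table, 11.4% held the GATA motif, 16.6% the CACCC motif and 1.56% both. GENCODE places the start of some transcripts of these genes inside the windows.

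Alpha chains made up 40.3% of adult globin counts in the members (39.1% in technical replicate 1 and 41.2% in technical replicate 2). Single barcodes ran from 35.0% to 60.6% with a median of 39.9%. These are shares of 3' counts and not of transcripts per length. In the low-globin barcodes, whose median was 4 adult globin counts each, the alpha share was 34.9%, and it was 44.7% in the 3080 barcodes with 0.5 to 5% globin.

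Within the alpha globins the members fell into 2 separate ranges. Hba-a1 made up 70.6 to 79.8% of the Hba-a1 and Hba-a2 counts in 48 members and 89.8 to 94.9% in the other 13, with no member in the gap of 10.0 percentage points between. Counting error per barcode was small beside that gap, with a binomial SD of at most 1.87 percentage points. The higher range held 3 of 26 members in technical replicate 1 and 10 of 35 in technical replicate 2. The limit of 85% that separates the ranges was chosen after the values were seen. Alpha share of globin overlapped between the ranges (medians 39.9% and 40.5%), while the Hbb-bs share of beta globin had a median of 86.9% in the lower range and 83.2% in the higher, also with overlap.

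Barcodes outside the members were split at the same limit of 85%. Of 51 barcodes with 5 to 50% globin and at least 100 alpha globin counts, 37 had an Hba-a1 share under 85% (median 76.7%) and 14 had 85% or more (median 97.7%). No gap lay at the limit here, since the lower class reached 84.96% and the higher began at 85.26%. The widest gap in these barcodes ran from 88.2 to 95.4%, and the highest share was 99.2%. The high share was seen in 12 of 26 such barcodes of technical replicate 1 and in 2 of 25 of technical replicate 2. The copies are nearly identical: the coding sequences of Hba-a1 and Hba-a2 in GENCODE differ at 1 of 429 bases, and those of Hbb-bs and Hbb-bt at 1 of 444. After the stop codon the annotated Hba-a1 sequence (74 bases) has no mismatch to that of Hba-a2, which is annotated with 90 bases. How reads were divided between the copies is not given in the sources used here, so values of single copies are uncertain.

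**Figure D2:**
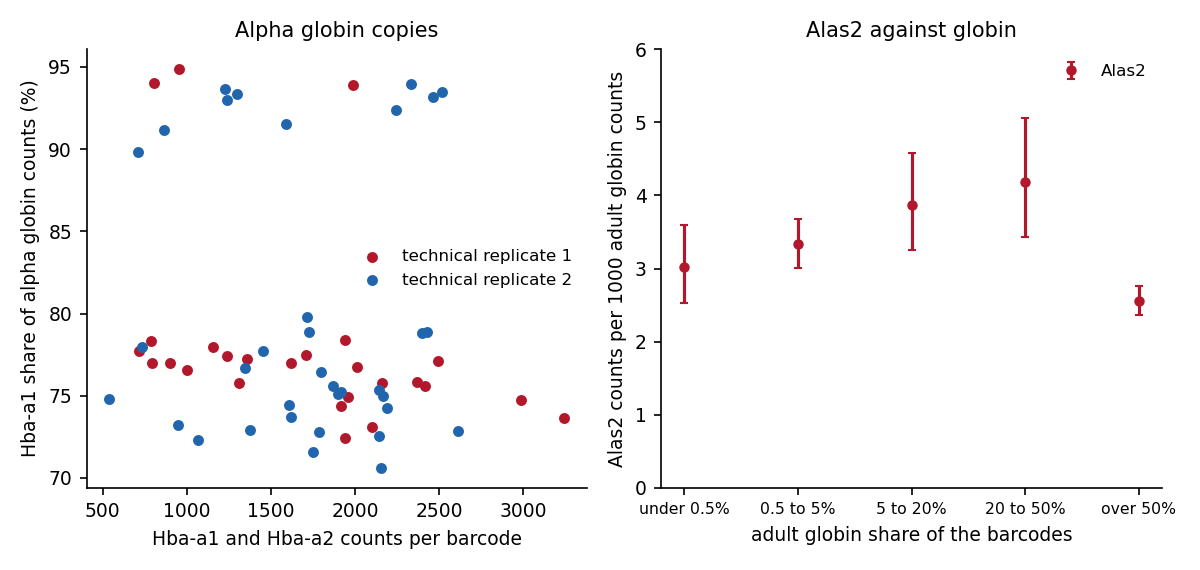
Left, the Hba-a1 percent of Hba-a1 and Hba-a2 counts in each of the 61 erythroid barcodes against their number, coloured by technical replicate: 48 lie between 70.6 and 79.8% and 13 between 89.8 and 94.9%. Right, counts of Alas2 per 1000 adult globin counts in 5 bands of barcodes by globin share (bars are exact 95% counting intervals): the value lies between 2.55 and 4.18.

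The remaining RNA of the members was compared with that of the low-globin barcodes as CPM, counts scaled to a total of 1000000 outside the 4 adult globin genes. Members held 33937 such counts in all (18379 and 15558 by technical replicate), with a median of 455 per barcode, and the low-globin barcodes, summed to a pool, held 59258856. A gene was called higher or lower where its CPM differed at least 2-fold in the same direction in both technical replicates, among the 557 genes with at least 10 counts observed or expected in the members. This called 143 genes higher (25.7% of those compared) and 31 lower (5.57%). Because globin share chose the barcodes, these percentages describe the group. Genes with under 10 counts expected from the pool were compared only where members held at least 10, which favours higher calls. The higher genes made up 29.7% of the members' counts outside globin and 2.22% of the pool's. Of the 143, 72 also had more counts per barcode in members than in low-globin barcodes, although members had far fewer counts to give. The median log2 ratio over all genes compared was 0.00.

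Haem synthesis genes were much higher in the members. Of the list's 15 genes, 6 had enough counts and all 6 were called higher. Each of the 6 was compared only because members held at least 10 counts, so this tally was largely set by that minimum. The list summed to 28700 CPM in members against 421 in low-globin barcodes, a ratio of 68.2 (95% interval 63.9 to 72.7). Alas2 gave 657 of the list's 974 counts in members and Fech 206. Alas2, which catalyses the first and rate-limiting step, was counted in all 61 members, with a lowest value of 1, a median of 10 and a highest of 28 counts. It reached 15398 and 24039 CPM in the 2 technical replicates against 2.18 in the pool, a ratio of 8893 (7353 to 10826). A member held 10.8 Alas2 counts on average and a low-globin barcode 0.0148. Alas2 is a defining erythroid marker that was not used to choose the barcodes.

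Fech, the ferrochelatase that inserts iron into the porphyrin ring in the last step, had 5278 and 7006 CPM, 137 times the pool's level. Fam210b, a mitochondrial protein needed for haem production in erythroid cells, was 56.3 times higher, and Slc25a39, a carrier of the inner mitochondrial membrane, 24.4 times. Urod, an enzyme of the cytosolic steps, was 20.1 times higher. Uros, the carrier Slc25a38 and the transporter Abcb6 had 0 counts in members, which at this depth allows up to 3 counts each. Alas1, the housekeeping form of the enzyme, was seen once.

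Iron genes were called higher in 5 of 7 cases and lower in none, against 25.7% and 5.57% of all genes compared. Among those higher, Slc25a37, Glrx5 and Iscu were compared only through their counts in members. Slc25a37 (mitoferrin, which brings iron into the mitochondrion) was 165 times higher, at 1306 and 1928 CPM. Of the iron-sulphur cluster proteins, Glrx5 was 14.2 times and Iscu 6.06 times higher. The ferritin chains Ftl1 and Fth1, which store iron, were 9.78 and 4.09 times higher and were counted in 61 and 59 members. Tfrc, the transferrin receptor of dividing erythroid precursors, had 5 counts in technical replicate 1 and 0 in technical replicate 2. Tfr2, Slc11a2, Steap3, Slc40a1 and Aco1 had none.

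Of 25 listed membrane and skeleton genes, 8 had enough counts and all 8 were called higher. Each of the 8 was compared only because members held at least 10 counts, so this tally was largely set by that minimum. The list as a whole was 24.6 times the pool's level (22.7 to 26.7). Slc4a1, the anion exchanger band 3, had 8 and 14 counts in members and 0 in the pool, a ratio of 12805 with the pool set to a floor of 3 counts and an exact lower 95% bound of 9565. Epb42, protein 4.2, had 8 and 6 counts against 1, a ratio of 24446 (3719 to 1033660), in 7 members. Of its 14 counts, 6 came from 1 barcode, and the interval does not cover such clustering.

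Cd24a, a surface protein of immature blood cells, was 237 times higher and was counted in 52 members. The skeleton proteins Epb41 and Mpp1 were 43.0 and 34.7 times higher. Tmcc2 was 56.5 times higher, with all its 17 counts in 7 members and 7 of them in 1 barcode. Cd47, which shields red cells from phagocytosis, was 3.57 times higher. Members ran from 0 to 49 counts of the membrane list, with 17 at 3 or fewer, and from 4 to 43 counts of the haem list. Rhag, Xk, Icam4 and Aqp1 had 0 counts in members.

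Of the clearance and maturation genes 15 of 16 were called higher, among them Ube2c, which was also on the G2M list of cell cycle genes. Of the 15, all but Ubb were compared only because members held at least 10 counts, so this tally was largely set by that minimum. The list summed to 59345 CPM against 2396, a ratio of 24.8. Mkrn1, a ubiquitin ligase, had 9195 and 14783 CPM, 339 times the pool's level, and was counted in 59 members. Ube2l6, a conjugating enzyme for ubiquitin and Isg15, was 417 times higher in 56 members. Bnip3l (Nix), the receptor by which reticulocytes clear their mitochondria, was 35.6 times higher in 53 members, and the autophagy proteins Gabarapl2 and Map1lc3b 26.8 and 11.4 times. The nuclease gene Isg20 and the poly(A) polymerase gene Tent5c were 2367 and 1097 times higher.

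Trim10, a ring-finger gene needed for erythroid differentiation, had 22 counts in technical replicate 1 and 2 in technical replicate 2 against 3 in the pool, a ratio of 13969 (4242 to 72471). Ube2o, the ligase that marks unneeded ribosomal proteins for destruction, was 33.1 times higher. The polyubiquitin gene Ubb was 18.1 times higher. Ulk1, Trim58 and Mxi1 had 0 counts in members.

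Genes for oxygen delivery and protection from oxidation were higher in 6 of 7 cases, against 25.7% of all genes compared. Of the 6, all but Prdx2 were compared only through their counts in members. Bpgm, which makes the phosphoglycerate that lowers the oxygen affinity of haemoglobin, had 10556 and 14976 CPM, 665 times the pool's level. Car2, the red cell's carbonic anhydrase, was 660 times higher but was counted in 28 members only. The peroxide-removing enzymes Gpx1, Prdx2 and Cat were 130, 16.1 and 13.7 times higher, and Blvrb, which reduces biliverdin, 40.4 times. Gpx4 was not called, at 1.72 times. Hemgn, a nuclear protein of erythroid cells, had 0 counts.

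Transcription factors and signalling genes gave few counts, most of them from Lmo2, E2f2 and Bcl2l1. The 17 listed factors gave 33 counts in all members, with none in 38. Their summed CPM was 3.73 times the pool's (2.56 to 5.24), with 12 of the counts from Lmo2 and 11 from E2f2. The signalling list gave 51 counts, 41 of them from Bcl2l1, and was 8.44 times the pool's level (6.28 to 11.1). The other genes of both lists had too few counts to be compared. E2f2 and Lmo2 had enough counts and were 80.7 and 10.3 times higher. E2f2, Lmo2 and Bcl2l1 were compared only because members held at least 10 counts, so their calls were largely set by that minimum. Gata1, Zfpm1, Gfi1b, Bcl11a, Myb, Foxo3 and Cbfa2t3 had 0 counts, and Klf1 had 0 and 2. Among signalling genes Bcl2l1 (Bcl-xL, a survival factor) was 52.4 times higher at 22 and 19 counts, whereas the erythropoietin receptor Epor had 0 and 1 count. Kit, Jak2, Stat5b, Socs3 and Erfe had none. A count of 0 allows up to 3 counts, and Gata1 had 1 count in the whole pool and Klf1 12, so a low level of such genes was not detectable at this depth.

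Cell cycle genes gave few counts at this depth. The S phase list of 20 genes gave 26 counts, with none in 45 members, and its CPM was 1.22 times the pool's (0.797 to 1.79). Of the 22 G2M genes, Ube2c was 24.1 times and Nusap1 12.0 times higher, in 30 and 13 members, whereas Top2a had 0 counts and Mki67 0 and 3. Ube2c and Nusap1 were compared only through their counts in members. The summed list was 2.53 times the pool's level, a ratio that rested largely on Ube2c. That gene gave 86 of the list's 135 counts in members and 6229 of 93211 in the pool. Glycolysis genes were not called in any of 6 cases, with the list at 0.788 times the pool (0.627 to 0.977).

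**Figure D3:**
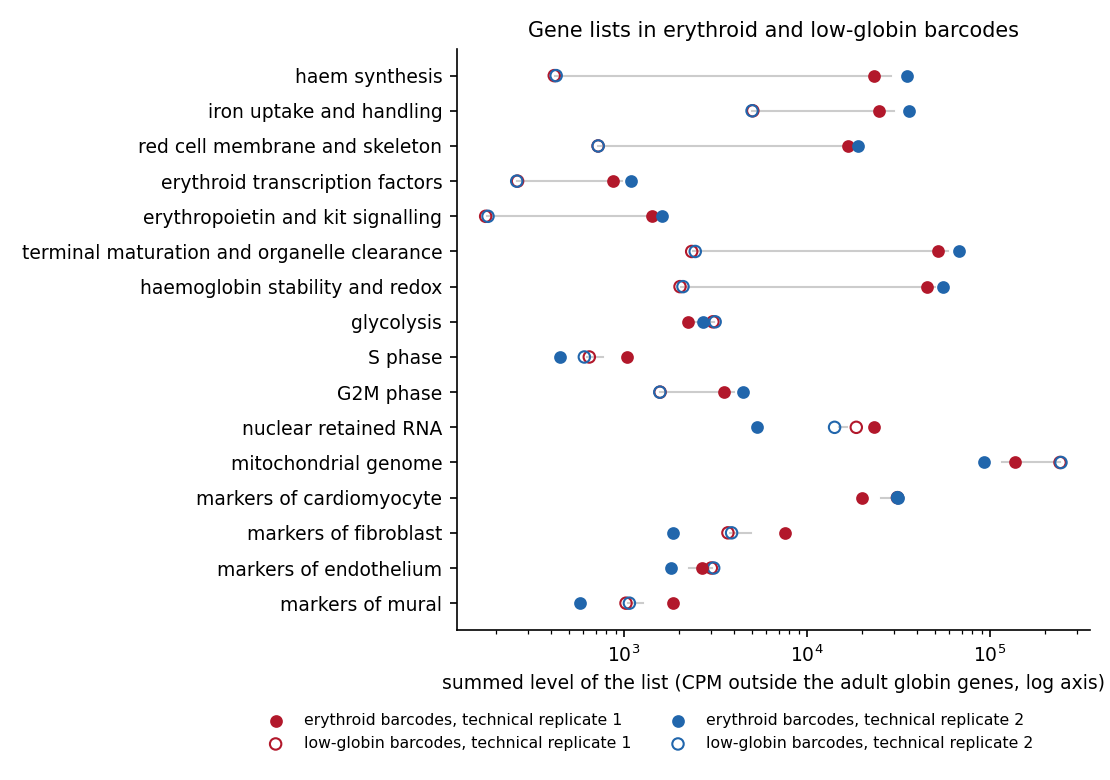
Summed level of each gene list in CPM outside the adult globin genes (log axis), filled points for the 61 erythroid barcodes and open points for the 8710 low-globin barcodes, red and blue by technical replicate. Lists with at least 10 counts in members are shown. The red cell lists lie to the right of the open points in both technical replicates, while mitochondrial genome counts lie to the left.

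Outside the lists 99 genes were called higher, and those described are among the 12 with the largest ratios. Rec114, a meiotic recombination gene, was 1455 times higher at 12 and 8 counts. Slfn14, a ribonuclease gene of the Schlafen family, had 9 and 4 counts in 4 members against 0 in the pool, a ratio of 7567 at the same floor and an exact lower 95% bound of 5322. Of its counts 7 came from 1 barcode. Interferon-inducible Rsad2 and Isg15 were 295 and 164 times higher, in 30 and 11 members. Of the 52 Isg15 counts, 15 came from 1 barcode. AI662270 was 298 times, Gadd45a 107, Fam213a 91.1, Hagh 50.1, Ccndbp1 30.7 and Dcaf12 26.9 times higher. Alas2, Rec114, Ube2c, Nusap1, Mkrn1, Gadd45a, Slc25a37, Tmcc2, Prdx2, Ftl1 and AI662270 share exon sequence with another annotated gene, and the use of strand in counting is not given in the sources used here.

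**Figure D4:**
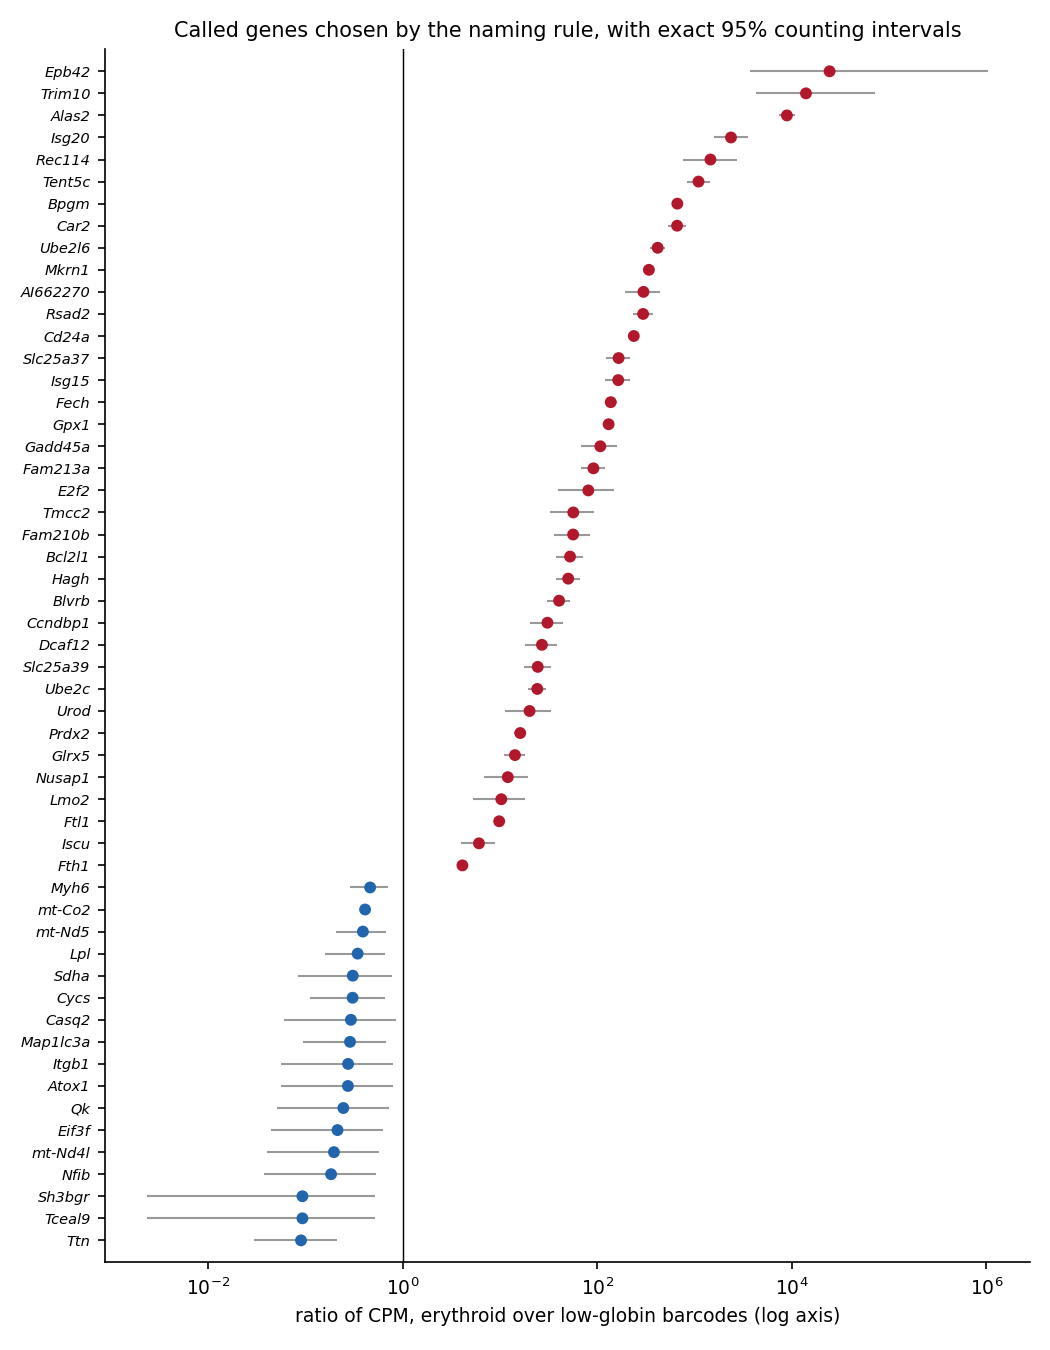
Ratio of CPM in erythroid over low-globin barcodes (log axis) for genes the naming rule chose, with exact 95% counting intervals, red for genes called higher and blue for genes called lower in both technical replicates. Slc4a1 and Slfn14, at 0 in the pool, and Ryr2, at 0 in members, have no ratio and are left out. Ratios run from 0.0896 for Ttn to 24446 for Epb42.

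Lower genes included some of the mitochondrial genome and of the cardiomyocyte marker list. All 31 also had fewer counts per barcode, which follows from depth. Members averaged 556 counts outside globin and low-globin barcodes 6804. Of 11 mitochondrial genes compared, 4 were called lower (mt-Nd4l, mt-Nd5, mt-Co2 and mt-Co1), against 5.57% of all genes compared. The mitochondrial list took 11.6% of the members' counts outside globin against 24.3% in the pool. The list took 13.6% in technical replicate 1 and 9.22% in technical replicate 2. Ttn, the giant sarcomere protein, had 0.0896 times the pool's level with 5 counts. Ryr2, the calcium release channel, had 0 counts, where the pool's level gives an upper interval bound of 0.265 times. Myh6 had 0.460 times. Like some of the higher genes, mt-Nd4l, mt-Nd5, Ttn and Myh6 share exon sequence with another annotated gene, for mt-Nd4l on the same strand.

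Of the lower genes outside the lists, the 12 with the smallest ratios were each counted in 7 members or fewer. Tceal9 and Sh3bgr had 1 count each, and Nfib, Eif3f, Qk, Atox1, Itgb1 and Casq2 had 3 each. Map1lc3a, Cycs, Sdha and Lpl had 0.286, 0.304, 0.305 and 0.343 times the pool's level. None of the 67 ribosomal protein genes compared was called in either direction, and their median log2 ratio was -0.40.

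Markers of other cell types were counted beside the red cell genes. Cardiomyocyte markers took 2.53% of the members' counts outside globin and 3.12% of the pool's, a ratio of 0.809 (0.756 to 0.865). Of 14 markers compared, 3 were called lower (Ttn, Ryr2 and Myh6) and none higher, against 5.57% and 25.7% of all genes compared. Every member had at least 5 counts of the cardiomyocyte list. Troponin T (Tnnt2) was at 0.932 times and the ventricular light chain Myl2 at 1.06 times the pool's level. Per barcode, members held 14.1 cardiomyocyte marker counts and low-globin barcodes 213. Between the number of these counts and the amount of globin, Spearman's rho over the 61 members was 0.01, as a description of barcodes that share libraries and depth. With globin, clearance list counts had a rho of 0.77, haem list counts 0.67, redox list counts 0.59, membrane list counts 0.31 and mitochondrial counts 0.18. In the 55 members over 75% globin the values were 0.76, 0.61, 0.55, 0.24 and 0.40, and 0.13 for the cardiomyocyte markers.

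Fibroblast markers stood at 1.31 times the pool's level, endothelial markers at 0.745 and mural markers at 1.21, and no gene of these lists was called. The fibroblast and mural values rested on technical replicate 1: their log2 ratios were 1.03 and 0.85 there and -1.06 and -0.89 in technical replicate 2. In the 55 members over 75% globin they were -0.84 and -1.13. White cell and platelet markers were near 0: macrophage markers gave 6 counts, granulocyte and platelet markers 2 each, and lymphoid markers 0. Progenitor and mast cell markers gave 7 and epicardial markers 3. Free RNA in the droplets was not measured apart, and its part in the non-erythroid counts was not tested.

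A few members carried most of the fibroblast and mural marker counts. Of the 139 fibroblast marker counts in technical replicate 1, 106 lay in 1 barcode, which also held 30 of the 34 mural counts, 218 of the 401 Malat1 counts and 52.2% globin. Another, with 63.8% globin, held 25 of the 49 endothelial counts. A further 4 (53.9, 65.0, 67.1 and 72.9% globin) held 339 to 694 mitochondrial counts and 28 to 67 cardiomyocyte marker counts each. These 6 were the only members at or below 75% globin, and they had a median of 728.5 genes. In the other 55, mitochondrial counts took 7.51% of the counts outside globin, cardiomyocyte markers ran from 5 to 26 counts, and no fibroblast, endothelial or mural list passed 10. With the 55 alone, 143 genes were called higher, of which 133 were among the 143 above, and 37 lower, of which 18 were among the 31.

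Malat1, an RNA kept in the nucleus, was sparse in most members. It was at 0 in 24 members and at most 3 in 49, and 10 members had 10 or more. Low-globin barcodes held 100 counts each on average. At an equal depth of 300 counts outside globin, which left out the 5 shallowest members, Malat1 was found in 50.0% of members and 87.3% of low-globin barcodes. The 55 members over 75% globin held 154 Malat1 counts together, against 323 in the other 6. In CPM the 2 technical replicates differed, since 401 counts fell in one and 76 in the other, and the pooled level was 0.955 times the pool's.

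**Figure D5:**
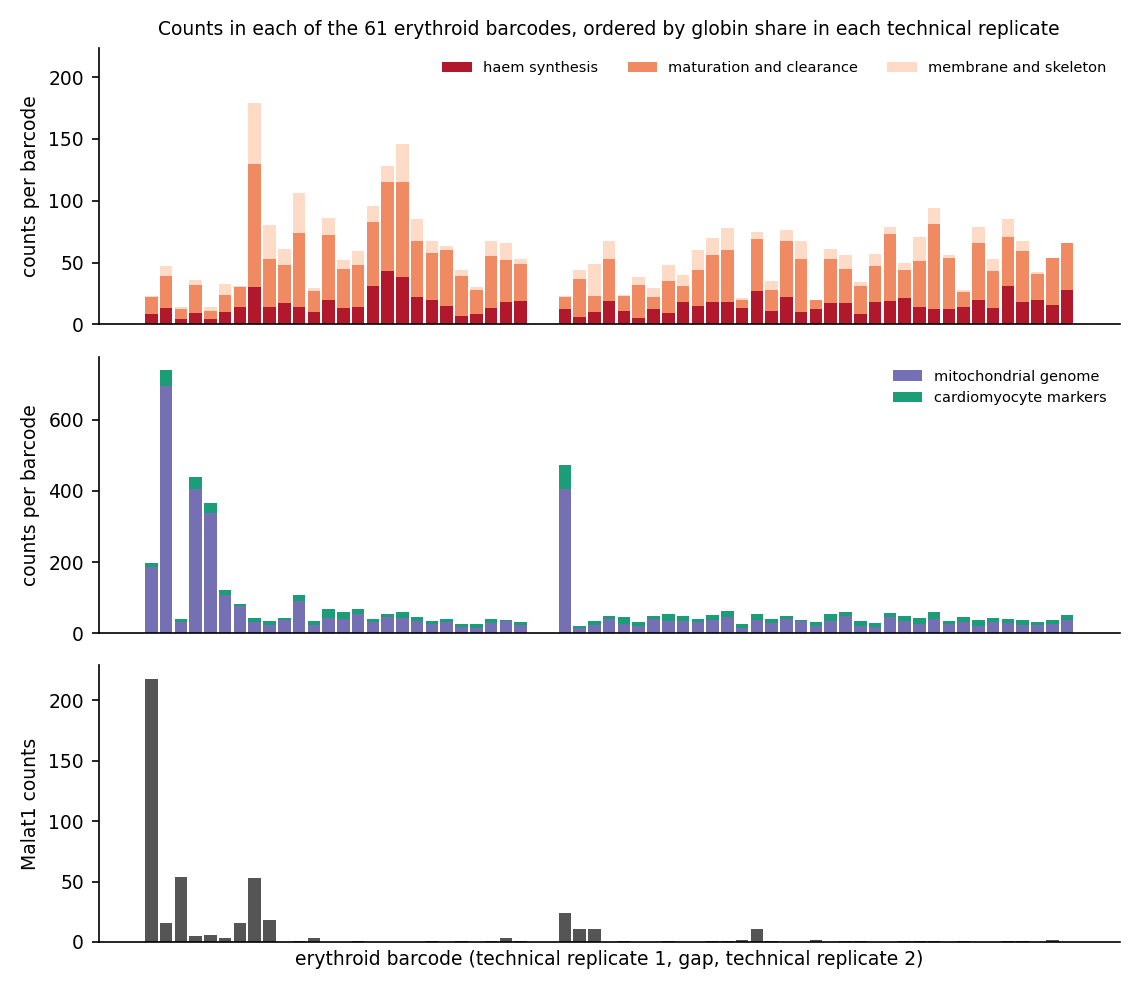
Each bar is 1 of the 61 erythroid barcodes, ordered from low to high globin share within technical replicate 1 (left of the gap) and technical replicate 2 (right). The panels give counts per barcode of 3 red cell lists, of the mitochondrial genome and cardiomyocyte markers, and of Malat1. Mitochondrial and Malat1 counts are concentrated in the barcodes of lowest globin share, while haem synthesis and clearance list counts are found in every barcode.

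Erythroid genes were also compared at the equal depth of 300 counts. Alas2 was found in 94.6% of thinned members and 0.0804% of thinned low-globin barcodes. Bpgm was found in 87.5% and 0.677%, and Cd24a in 80.4% and 1.04%. The cardiomyocyte genes Tnnt2 (50.0% and 49.8%) and Myl2 (64.3% and 43.2%) were found in similar or larger shares of members. At that depth members had a median of 196 detected genes and low-globin barcodes 203.

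Globin in the rest of the libraries was accompanied by Alas2. Per 1000 adult globin counts there were 3.02 Alas2 counts (2.52 to 3.59) in the low-globin barcodes. There were 3.33 (3.01 to 3.67) with 0.5 to 5% globin and 3.87 (3.25 to 4.58) with 5 to 20%. With 20 to 50% there were 4.18 (3.43 to 5.06), and in the members 2.55 (2.36 to 2.76). Fech and Bpgm were less even, with 61.4 and 26.3 in the low-globin barcodes and 0.800 and 1.66 in the members. The 11 barcodes with 20 to 50% globin had a median of 1888 genes, 18.9 macrophage and 11.3 platelet marker counts each on average, against 0.0984 and 0.0328 in the members. The macrophage and platelet counts came from technical replicate 1, whose 8 such barcodes averaged 26 and 15.5, while the 3 of technical replicate 2 had 0 of both.

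Promoter motifs were tallied for the called genes. Of the 103 genes called higher that had an entry in the promoter table, 12.6% held the GATA motif and 24.3% the CACCC motif, against 9.29% and 21.7% of the 420 entries among all genes compared. In the membrane list, 6 of 18 promoters held the GATA motif and 3 the CACCC motif. In the haem synthesis list 1 of 13 held the GATA motif and 4 the CACCC motif. A match is a run of letters and not a measured binding site.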

How the data were processed

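Counts per gene and cell barcode were deposited by the authors as whole numbers, 1 matrix per technical replicate. Per the submitters' processing notes, Cell Ranger 2.1.0 and mm10 were used, and whether the counts are molecules or reads is not stated. Both records carry 1 internal sample name while the second matrix's columns carry another, and each matrix was taken under the record it was deposited with. Of 27999 features, 27645 were matched to symbols by GENCODE gene ID, and 4 listed genes were not analysed here. Members, the comparison barcodes, gene lists and naming rule were chosen with earlier results of these data known. The naming rule took every globin and Alas2, up to 5 higher and 3 lower called genes per list, the 12 highest and 12 lowest called genes in no list, and haem, factor and signalling genes at 0 counts. Further list genes, such as Malat1, Tfrc, Epb41, Tnnt2 and Myl2, were named after their values were seen, and some genes the rule chose are not reported here. Counts were summed per technical replicate and expressed as CPM outside the adult globin genes. Ratios carry exact conditional 95% intervals and shares exact Clopper-Pearson intervals. A pool at 0 was set to a floor of 3 counts over the whole pool. Tested on simulated data, the 2-fold rule called 92% of genes set 4-fold higher, 88% set to 0.25 times, 50% set to 0.4 times and 1.17% of 343 unchanged ones. The simulation varied summed counts by counting error alone, without the clustering in single barcodes seen for some genes. These rates may therefore not hold for the real data. Scripts ran in Python 3.11.15. Intervals came from scipy 1.17.1, tables from pandas 2.3.3 and sequence alignments from Biopython 1.88. Alternatives covered the globin threshold, the comparison barcodes, the count minimum, the fold, mitochondrial counts, thinning depth and each technical replicate left out.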

Additional observations from a re-analysis of the deposited data

How the results depend on the processing

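No paired analysis was possible because the 2 technical replicates belong to 1 group. The member share was 0.0340% among barcodes with at least 500 genes and 1000 counts, where 4 members remained. With these 4, 5 genes were higher and 12 lower, alpha share was 43.2%, mitochondrial share 18.8%, and thinned members had a median of 216.5 genes. The log2 list ratios were then 3.64 for haem synthesis, 1.23 for membrane, 2.09 for fibroblast, 2.02 for mural and 0.53 for endothelial markers, the last changing sign. At a globin threshold of 25%, 59 genes were lower, and the log2 ratios were 5.17 (haem), 3.59 (membrane) and 0.39 (endothelium, changing sign). At 75%, mitochondrial share was 7.51%, and the log2 ratios were 5.01 (membrane), -0.86 (endothelium) and -1.13 (mural, changing sign). Leaving mitochondrial counts out of CPM gave 49 lower genes and a membrane ratio of 4.40. A comparison pool without barcodes over 20% mitochondrial counts gave 104 lower genes, a cardiomyocyte ratio of 0.31 (changing sign) and an endothelial ratio of -1.43. Averaging each barcode's share gave 4.80 for membrane, 0.15 for endothelium and -1.07 for mural markers, both of the latter changing sign. A minimum of 5 counts gave 112 lower genes, and a minimum of 20 gave 93 higher and 8 lower. A 3-fold rule gave 8 lower. Without the 5 members over 1000 counts outside globin, an alternative chosen after seeing the data, the ratios were 4.97 (membrane), -0.87 (endothelium) and -1.06 (mural, changing sign). Thinned to 150 counts, members had a median of 114 genes. Leaving out either technical replicate gave medians from 189.5 to 198.5. The fibroblast ratio, 0.39 in the members, changed sign to -0.84 at the 75% threshold, -0.82 by averaged shares, -0.61 with the low-mitochondrial pool and -0.86 without the 5 members. The mural ratio was -0.49 with that pool. Leaving out each technical replicate gave -1.06 to 1.03 for fibroblast, -0.89 to 0.85 for mural and -0.64 to 0.01 for cardiomyocyte markers. The cause of these shifts was not tested. No gene called in one direction was called in the other under any setting that redid the calls. Marker lists with under 10 counts in members gave no ratio. Precision is limited by 33937 counts outside globin: genes under 10 observed or expected counts were not compared.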
